A study of Mus musculus with 12 samples.

Results

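The 10 genes described here, Fabp3, Cd36, Lpl, Cpt1b, Cpt2, Acadl, Acadm, Acaa2, Ech1 and Hadha, encode proteins that bring fatty acids into muscle, carry them into mitochondria and oxidize them there. They are 10 of the 36008 identifiers in the deposited expression table, and all 10 passed the filter on low values that 10481 genes passed. The genes were chosen by their function and by their transcript levels in flight against ground, with earlier results of these data known. Their differences between flight and ground are therefore given as a description, with no p for any of them; how many passed the thresholds of the fit over all genes is printed beside the background, and nothing is read from it. All 10 had lower mean levels in flown mice than in ground mice in both muscles, and Fabp3, Acaa2 and Ech1 differed most in the gastrocnemius, where they stood at 54.2%, 62.3% and 65.1% of the ground level.

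Muscle takes up long-chain fatty acids that lipoprotein lipase releases from circulating triglyceride at the capillary wall. They cross the plasma membrane with the help of CD36, travel in the cytosol on fatty acid binding protein and are activated to acyl-CoA. The carnitine shuttle moves the acyl group into the mitochondrial matrix, where repeated rounds of dehydrogenation, hydration, a second dehydrogenation and thiolytic cleavage shorten it and yield acetyl-CoA for the citric acid cycle. Slow-twitch and other oxidative fibers rely on this pathway more than glycolytic fibers do, and many of its genes are targets of the PPAR and ERR nuclear receptors with their PGC-1 coactivators.

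RNA was sequenced from the gastrocnemius, a calf muscle with slow and fast fibers, and the quadriceps, a mostly fast thigh muscle, of 6 female mice, aged 30 weeks when the experiment began. Mice M02, M03 and M08 stayed on the ground in matching hardware and M11, M12 and M20 spent 9 weeks on the International Space Station, and both sets received injections of phosphate-buffered saline under the skin, as the control arm of a bone study. Each mouse gave both muscles, dissected from the left hind limb after the frozen carcass had thawed, so that 12 libraries fall into 4 groups of 3. For every group alike, the strain is BALB/c in the study's methods but C57BL/6 in the labels of the samples.

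Expression is given as TPM, a share of the library's transcripts that is scaled by their length and can be compared between genes of a library. TPM carries no counting depth, so the precision of a value rests on the spread over 3 mice. The values of a library summed to between 923295 and 966638. The quadriceps library of ground mouse M08 listed 18172 genes above 0, and the other libraries listed 20291 to 21265. Skeletal actin Acta1 was between 15950 and 20630 TPM, and the leukocyte marker Ptprc was between 1.82 and 3.09 TPM. Fold changes are on the log2(TPM + 1) scale with their standard error (SE). The SE is that of the limma fit, which draws the variance of each gene toward a trend over all genes tested. It is therefore not the spread of that gene's own mice alone.

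**Figure D1:**
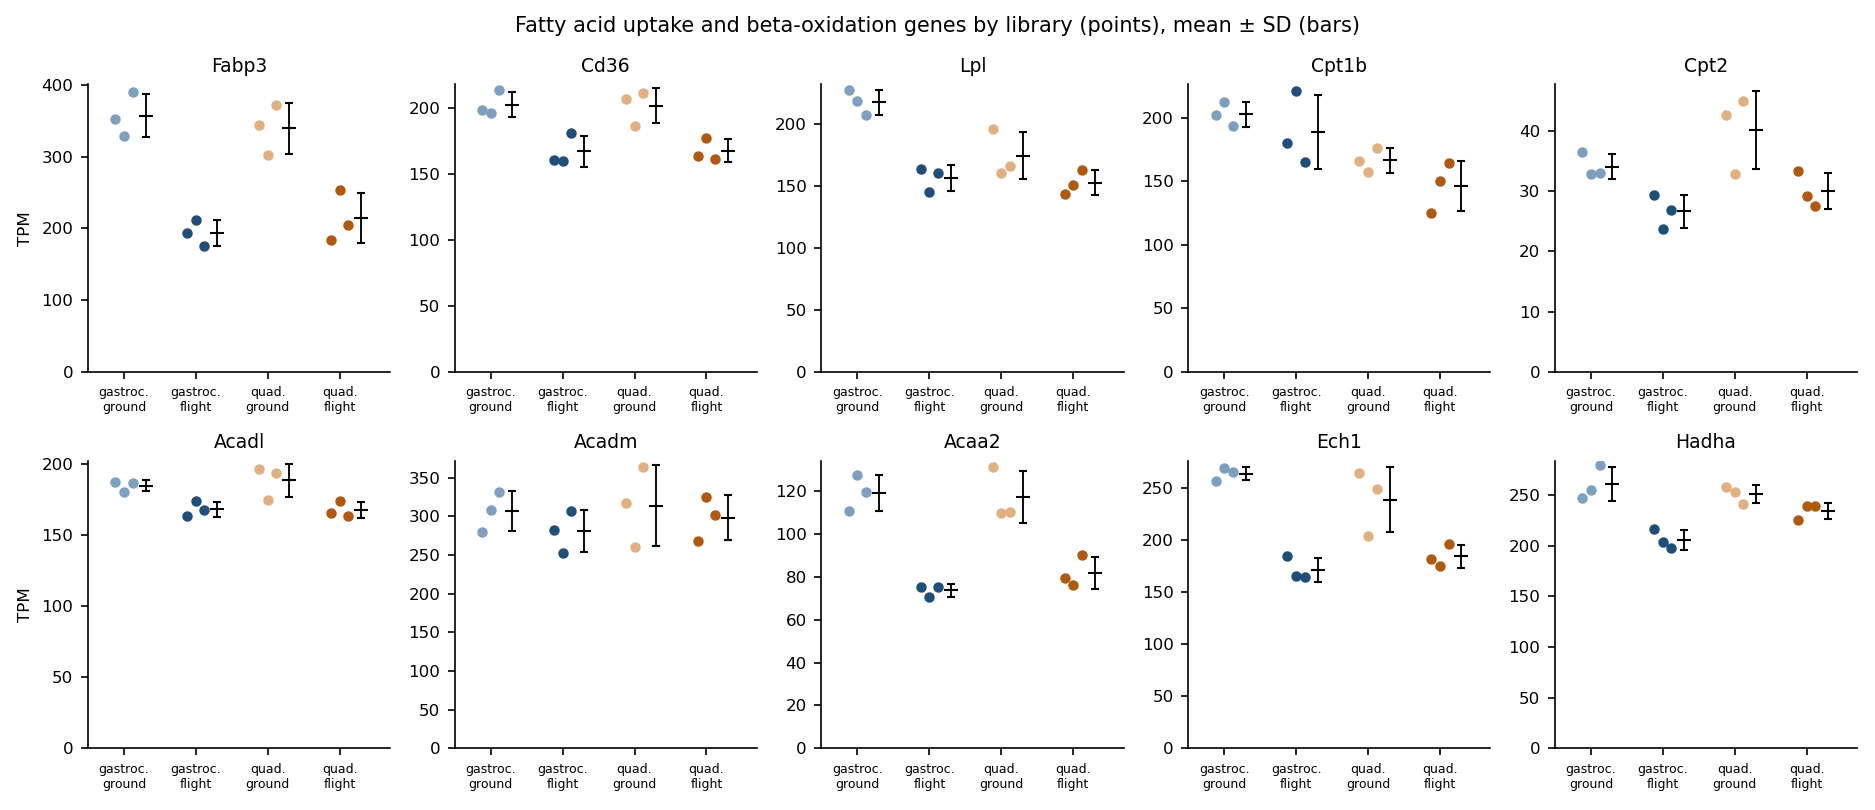
TPM (vertical axis, from 0) of the 10 genes in each of the 12 libraries, by muscle and condition; points are libraries and the bars beside them are the mean and the SD of 3 mice. In the gastrocnemius the flight points lie below every ground point for 8 of 10 genes, and in the quadriceps for 6 of 10. The same holds for 8.55% and 8.12% of all genes tested. The contrast with flight helped to choose the 10 genes, so these counts are a description.

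The summed level of the 10 genes was 2099, 2129.8 and 2220 TPM in the ground gastrocnemius and 1650, 1626 and 1620.4 TPM in the flown gastrocnemius. In the quadriceps the sum was 2124, 1841 and 2129 TPM on the ground and 1570, 1751 and 1713 TPM after flight. The flown libraries lay below all ground libraries in both muscles, with a difference between the means of -24.1% in the gastrocnemius and -17.4% in the quadriceps. Within the quadriceps the ground library of M03 had the lowest sum of its group and was the nearest to the flown libraries.

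In the gastrocnemius 3 of the 10 genes (Fabp3, Acaa2 and Ech1) passed both thresholds, more than 1.5-fold and a limma adjusted p under 0.05, which 24 of 10481 genes passed (0.229%). None of the 10 passed with ground M02, M03 or M08 or flight M12 or M20 left out in turn, and the same 3 passed without flight M11. Every flown library lay below every ground library for 8 of the 10, and for 896 of all genes tested (8.55%). In the quadriceps none of the 10 passed the thresholds, which 3 genes in all passed (0.0286%), and the libraries separated in the same direction for 6 of the 10, and for 851 of all genes (8.12%). The median log2 fold change of the 10 genes was -0.34 in the gastrocnemius against -0.23 in the quadriceps, beside 0.019 and 0.012 over all genes tested. The contrast with flight helped to choose the genes, so these counts are a description. In a muscle extract, fewer cells of a type and less RNA per cell cannot be told apart.

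**Figure D2:**
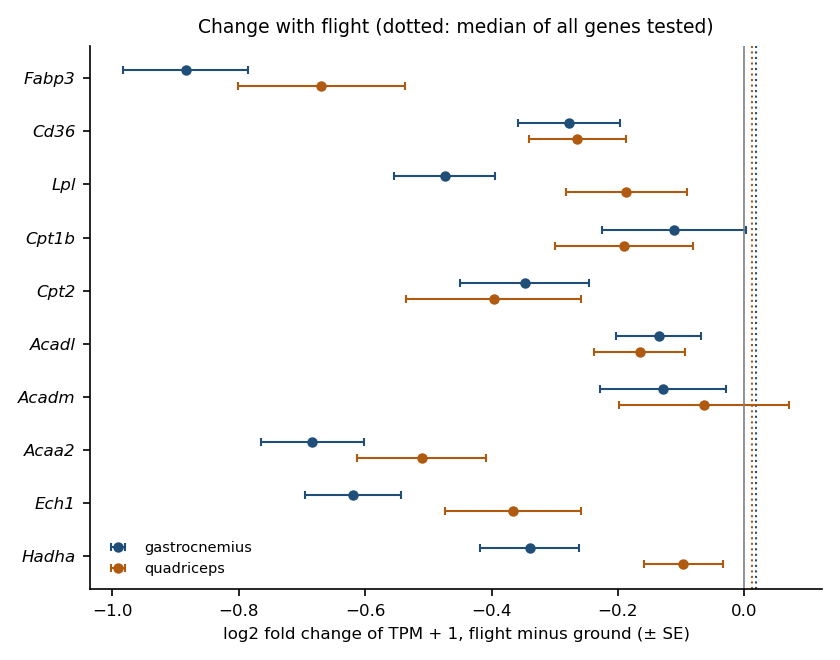
Log2 fold change of TPM + 1, flight minus ground (horizontal axis), with its SE, for the 10 genes in the gastrocnemius (blue) and the quadriceps (orange); dotted lines are the median of all genes tested in each muscle. All points lie below 0, from -0.88 to -0.11 in the gastrocnemius and from -0.67 to -0.06 in the quadriceps.

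Fabp3 (ENSMUSG00000028773, chromosome 4, 130308595 to 130315463, plus strand, GRCm38) encodes the heart-type fatty acid binding protein, the cytosolic carrier of fatty acids in oxidative muscle. It was at 353, 329 and 389.6 TPM in the ground gastrocnemius and at 193, 212 and 175 TPM after flight. Its quadriceps levels were 345, 302 and 372 TPM on the ground and 184, 253 and 205 TPM after flight. The groups did not overlap in either muscle, and the highest flown library, from the quadriceps of M12, still lay below the lowest ground library. The log2 fold change was -0.88 with an SE of 0.0988 in the gastrocnemius and -0.67 with an SE of 0.132 in the quadriceps.

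Cd36 (ENSMUSG00000002944, chromosome 5, 17781690 to 17888801, minus strand) encodes the membrane glycoprotein that binds long-chain fatty acids at the surface of muscle fibers and of capillary endothelium. Its TPM was 199, 196 and 214 on the ground and 161, 160.3 and 181 after flight in the gastrocnemius. The quadriceps values were 207, 187 and 211 on the ground and 164, 178 and 162 after flight. Both muscles showed nearly the same shift, with log2 fold changes of -0.28 (SE 0.0805) and -0.26 (SE 0.0766), and no library of one condition entered the range of the other.

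Lpl (ENSMUSG00000015568, chromosome 8, 68880491 to 68907448, plus strand) encodes lipoprotein lipase, which muscle fibers and adipocytes make and which acts on the capillary lumen. In the gastrocnemius it was at 228, 219 and 208 TPM on the ground and at 164, 145 and 161 TPM after flight, without overlap. Quadriceps levels were 196, 161 and 167 TPM on the ground and 144, 151 and 164 TPM after flight, and the groups overlapped because the ground library of M03 lay below the flown library of M20. The log2 fold change was -0.47 (SE 0.08) in the gastrocnemius and -0.19 (SE 0.0957) in the quadriceps.

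Markers of capillaries and fat cells were followed in the same libraries. The 10 capillary endothelium markers, among them Pecam1 (26.1 to 35.8 TPM) and Cdh5 (20.4 to 33.1 TPM), all passed the filter and none was called in either muscle; 5 were lower in flight in the gastrocnemius and 7 in the quadriceps. Their summed level ran from 227 to 235 TPM on the ground and from 196 to 261 TPM after flight in the gastrocnemius, and from 189 to 217 TPM and from 149 to 225 TPM in the quadriceps. Of 9 adipocyte markers 7 passed the filter, 2 (Lep and Lgals12) did not, and none was called. In the quadriceps all 7 were lower in flight, with a median log2 fold change of -1.09, and their summed level ran from 98.1 to 228 TPM on the ground and from 51.0 to 85.4 TPM after flight. In the gastrocnemius their sum overlapped, from 46.8 to 106 TPM on the ground and from 40.6 to 93.8 TPM after flight. The adipocyte markers Adipoq and Plin1 were above 0 in every library, and the part of adipocytes in the levels of Lpl and Cd36 was not tested.

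Cpt1b (ENSMUSG00000078937, chromosome 15, 89416405 to 89425863, minus strand) encodes the muscle form of carnitine palmitoyltransferase I on the outer mitochondrial membrane, the step that malonyl-CoA inhibits. In the gastrocnemius it was at 202, 213 and 193 TPM on the ground and at 179.7, 221 and 165 TPM after flight. The quadriceps had 166, 157 and 176 TPM on the ground and 125, 149.9 and 164 TPM after flight. Ground and flight overlapped in both muscles, and the highest gastrocnemius library of all was a flown one, from M12. The log2 fold change was -0.11 (SE 0.114) in the gastrocnemius and -0.19 (SE 0.109) in the quadriceps.

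Cpt2 (ENSMUSG00000028607, chromosome 4, 107903981 to 107923610, minus strand) encodes carnitine palmitoyltransferase II, which releases acyl-CoA inside the matrix, and it had the lowest level of the 10 genes in all 4 groups. It was at 36.4, 32.8 and 32.9 TPM in the ground gastrocnemius and at 29.3, 23.7 and 26.8 TPM after flight, without overlap. In the quadriceps it was at 42.7, 32.9 and 44.9 TPM on the ground and at 33.4, 29.2 and 27.6 TPM after flight, where the ground library of M03 lay below the flown library of M11. The log2 fold changes were -0.35 (SE 0.102) and -0.40 (SE 0.138). The level of Cpt1b was 5.96 ± 0.475 times that of Cpt2 (SD, n = 3) in the ground gastrocnemius and 7.20 ± 1.83 times after flight, and 4.20 ± 0.507 and 4.94 ± 1.11 times in the quadriceps, with overlapping ranges in both muscles.

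Acadl and Acadm encode the long-chain and medium-chain acyl-CoA dehydrogenases, which catalyze the first oxidation of each round. Acadl (ENSMUSG00000026003, chromosome 1, 66830839 to 66863277, minus strand) was at 187, 181 and 186 TPM in the ground gastrocnemius and at 163, 174 and 167 TPM after flight, and at 197, 175 and 194 TPM in the ground quadriceps and at 166, 174 and 163 TPM after flight. Its conditions did not overlap in either muscle, although the ground library of M03 and the flown library of M12 almost met in the quadriceps, and its log2 fold changes were -0.14 (SE 0.0672) and -0.17 (SE 0.0716).

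Acadm (ENSMUSG00000062908, chromosome 3, 153922357 to 153944632, minus strand) was at 281, 308 and 332 TPM in the ground gastrocnemius and at 283, 252 and 307 TPM after flight. Levels in the quadriceps were 318, 260.3 and 364 TPM on the ground and 268, 326 and 302 TPM after flight. Ground and flight overlapped in both muscles. Its log2 fold change was -0.13 (SE 0.0998) in the gastrocnemius and -0.06 (SE 0.134) in the quadriceps, and the latter turned to 0.049 without the ground library of M08 and to 0.012 without the flown library of M11.

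Ech1 (ENSMUSG00000053898, chromosome 7, 28825217 to 28832247, plus strand) encodes dienoyl-CoA isomerase, an auxiliary enzyme that shifts double bonds so that unsaturated fatty acids can be oxidized. It was at 257, 269 and 265 TPM in the ground gastrocnemius and at 185, 165 and 165 TPM after flight. In the quadriceps it was at 264, 204 and 249 TPM on the ground and at 181, 175 and 197 TPM after flight, so that the ground library of M03 was the lowest of its group here too. The log2 fold change was -0.62 (SE 0.0754) in the gastrocnemius and -0.37 (SE 0.108) in the quadriceps, with no overlap in either muscle.

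Hadha (ENSMUSG00000025745, chromosome 5, 30118304 to 30155162, minus strand) encodes the alpha subunit of the mitochondrial trifunctional protein, which carries the hydratase and the long-chain hydroxyacyl-CoA dehydrogenase. It was at 247, 255 and 279 TPM in the ground gastrocnemius and at 216, 203 and 198 TPM after flight. Quadriceps libraries had 258, 253 and 241 TPM on the ground and 225, 239 and 239 TPM after flight, with the closest flown and ground libraries 239 and 241 TPM. The log2 fold changes were -0.34 (SE 0.0784) and -0.10 (SE 0.0624). Its partner Hadhb, the beta subunit with the thiolase activity, was outside the chosen genes and was at 244 to 271 TPM on the ground and 157 to 196 TPM after flight in the gastrocnemius, with a log2 fold change of -0.55 (SE 0.0997, limma adjusted p = 0.103). The ratio of Hadha to Hadhb was 0.998 ± 0.0706 (SD, n = 3) in the ground gastrocnemius and 1.16 ± 0.120 after flight, and 0.862 ± 0.0864 and 1.03 ± 0.0962 in the quadriceps. The flown mice had the higher ratio in every library of each muscle, but by little. The highest ground and lowest flown ratios were 1.04 and 1.08 in the gastrocnemius and 0.939 and 0.949 in the quadriceps. The share of gene pairs whose ratios separate was not counted, so nothing is read from this.

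Acaa2 (ENSMUSG00000036880, chromosome 18, 74779197 to 74806208, plus strand) encodes the mitochondrial thiolase that cleaves acetyl-CoA from the shortened chain. It was at 110.4, 127 and 119 TPM in the ground gastrocnemius and at 75.4, 70.3 and 75.1 TPM after flight. In the quadriceps it was at 131, 109.9 and 110.3 TPM on the ground and at 79.2, 76.0 and 90.1 TPM after flight. The conditions were far apart in both muscles. The log2 fold change was -0.68 (SE 0.082) in the gastrocnemius and -0.51 (SE 0.102) in the quadriceps.

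The order of the 10 levels differed between ground and flight. Fabp3 had the highest mean on the ground, 357 ± 30.5 TPM (SD, n = 3) in the gastrocnemius and 339 ± 35.4 TPM in the quadriceps, and Acadm followed with 307 ± 25.9 and 314 ± 52.0 TPM. After flight Acadm came first, with 281 ± 27.5 TPM in the gastrocnemius and 299 ± 29.2 TPM in the quadriceps, and Fabp3 followed Hadha with 193 ± 18.4 and 214 ± 35.3 TPM. The ratio of Fabp3 to Acadm ran from 1.07 to 1.26 in the ground gastrocnemius and from 0.569 to 0.839 after flight, and from 1.02 to 1.16 and from 0.679 to 0.777 in the quadriceps, without overlap. Here too the share of gene pairs whose ratios separate was not counted. In the ground gastrocnemius Ech1 and Hadha, at 264 and 260.4 TPM, and Cd36 and Cpt1b, at 202.8 and 202.5 TPM, were neighbours that differed by less than their spread. Cpt2 and Acaa2 stayed the lowest in every group.

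Slow-twitch fiber genes were also lower in the flown gastrocnemius. All 11 of the slow-twitch list passed the filter, and in the gastrocnemius all 11 were lower in flight, with a median log2 fold change of -0.37. Myl2, the slow regulatory light chain, fell from between 432 and 566 TPM to between 158 and 213 TPM (log2 fold change -1.33, limma adjusted p = 0.0361), and Atp2a2 and Myl3 were called with it. With a library left out, the calls of Myl2 and Atp2a2 held only without flight M11 and that of Myl3 only without flight M11 or ground M08; the adjusted p of Myl2 was 0.053 to 0.145 without ground M02, M03 or M08 or flight M12 or M20. Myh7, the slow myosin heavy chain, was at 222 to 278 TPM on the ground and at 184 to 241 TPM after flight, and was not called. The summed level of the list ran from 3376 to 4092 TPM on the ground and from 2422 to 2711 TPM after flight in the gastrocnemius. In the quadriceps it ran from 2482 to 3753 TPM and from 2343 to 2991 TPM, with overlap and no gene called, and its lowest ground library was M02 (Myh7 at 96.8 TPM against 292.5 and 306 TPM). The lowest ground sum of the 10 fatty acid genes in that muscle was in M03. Of the 11 slow-twitch genes, 8 were lower in flight in the quadriceps. Among them Mb was at 1204 to 1454 TPM on the ground and at 847.4 to 976.5 TPM after flight. The fast-twitch list, 11 genes, had no gene called in either flight comparison. Its sum was 79754 to 82082 TPM on the ground and 85096 to 89828 TPM after flight in the gastrocnemius. In the quadriceps the sum was 111762 to 122533 TPM and 119753 to 127188 TPM. Of the 11 fast-twitch genes, 9 were higher in flight in the gastrocnemius and 7 in the quadriceps. The lowest in both muscles was Myh2, with log2 fold changes of -0.344 and -0.365. Myh2 was at 1048 to 1362 TPM on the ground and at 896 to 974 TPM after flight in the gastrocnemius. Its quadriceps levels were 915 to 1048 TPM and 714 to 799 TPM. The part of fiber type in the levels of the 10 genes was not tested.

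**Figure D3:**
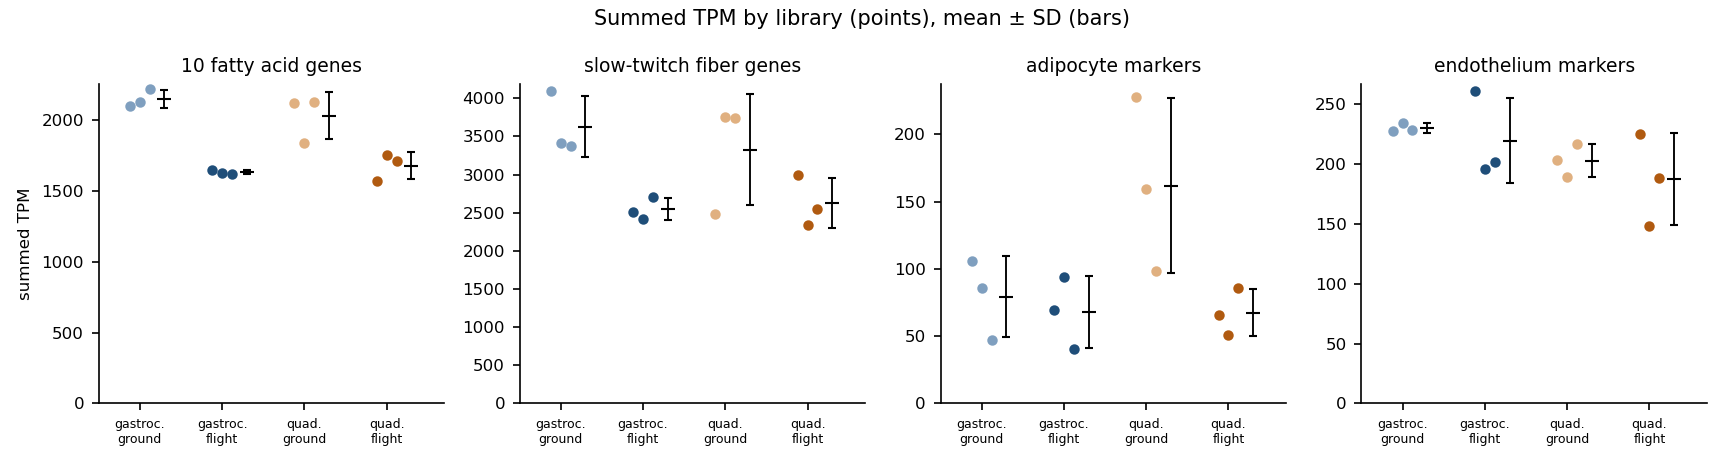
Summed TPM (vertical axes, from 0) of the 10 fatty acid genes, the slow-twitch list, the adipocyte markers and the endothelium markers in each library, with mean and SD of 3 mice. The flown libraries lie below the ground libraries for the fatty acid genes in both muscles, for the slow-twitch list only in the gastrocnemius and for the adipocyte markers only in the quadriceps.

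The summed markers of red blood cells, of nerve and Schwann cells, of fibroblasts and tendon, and of macrophages and leukocytes overlapped between ground and flight in both muscles. All 5 red blood cell markers were lower in flight in the gastrocnemius and 4 of 5 in the quadriceps, with Hbb-bs at 118 to 238 TPM on the ground and 94.1 to 148 TPM after flight in the gastrocnemius, and none was called. The nerve and Schwann cell markers, of which 6 of 7 passed the filter, and the fibroblast and tendon markers, of which 6 of 8 passed, with Col1a1 at 12.4 to 22.0 TPM in all libraries, had no gene called with flight. The summed nerve and Schwann cell markers were 34.7% higher on average after flight in the gastrocnemius and 2.4% in the quadriceps. Only 3 of 8 macrophage and leukocyte markers passed the filter, and none was called.

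The difference between the muscles was fitted for the same 10. It uses the libraries of the contrast that helped to choose them, and earlier results were known, so its values and p-values are a description. On the ground none of the 10 passed the thresholds between gastrocnemius and quadriceps, which 232 of 10481 genes passed (2.21%). Cpt1b was 1.22-fold higher in the gastrocnemius (log2 difference 0.28, SE 0.0677, adjusted p = 0.0472), which is under the fold threshold, and with the mouse as a block its adjusted p was 0.0978. Lpl was 1.25-fold higher (0.32, SE 0.0871, adjusted p = 0.0647). Except for the block value of Cpt1b, p-values of the 10 between muscles come from a limma fit that ignores the shared mice. With the block, 0 of the 10 passed the thresholds on the ground and 0 after flight. The gastrocnemius libraries of both genes lay above all quadriceps libraries, and the other 8 genes overlapped. The share of all genes whose libraries separated between the muscles was not counted in either condition. Nothing is therefore read from such separations on the ground or after flight. The log2 differences of the other 8 genes ran from -0.22 for Cpt2 to 0.15 for Ech1, with adjusted p of 0.298 or more.

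After flight none of the 10 passed either, against 174 genes in all (1.66%). Cpt1b was again above the quadriceps in every library, by 0.36 (SE 0.142, adjusted p = 0.172), while Lpl differed by 0.036 (SE 0.0884, adjusted p = 0.839). Hadha and Acaa2 lay below the quadriceps in every library, by -0.19 (SE 0.0752, adjusted p = 0.176) and -0.15 (SE 0.0924, adjusted p = 0.364). The median of all genes was itself shifted, to -0.12 on the ground and -0.11 after flight, with 67.7% and 66.7% of genes lower in the gastrocnemius. On the ground the 10 genes had a median of 0.039, with 7 of 10 higher in the gastrocnemius, and after rescaling the libraries by median ratios 9 of 10 were higher with a median of 0.14. After flight their median was -0.095, with 7 of 10 lower, and -0.00791 after the rescaling.

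**Figure D4:**
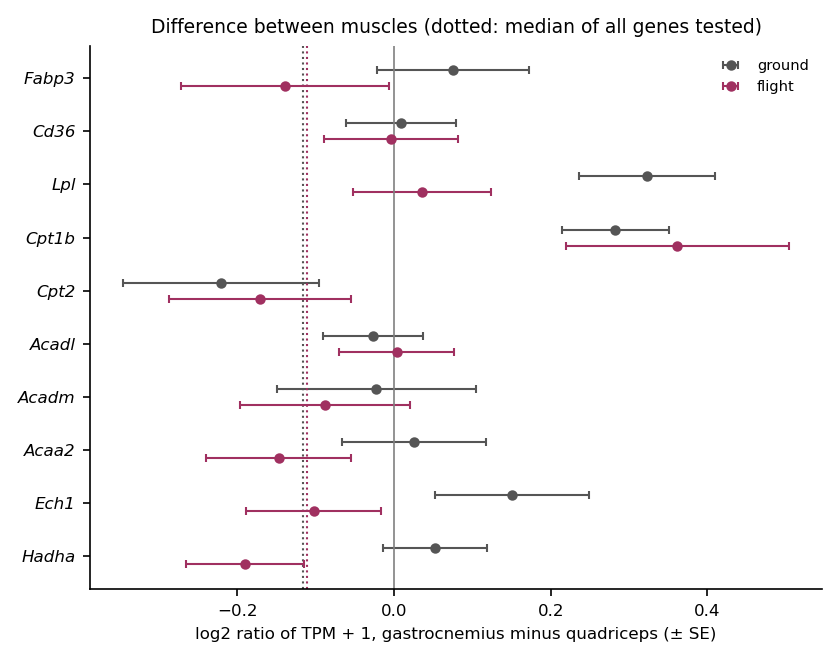
Log2 ratio of TPM + 1, gastrocnemius minus quadriceps (horizontal axis), with its SE, for the 10 genes on the ground (grey) and after flight (dark pink); dotted lines are the medians of all genes tested, -0.12 and -0.11. Cpt1b lies to the right in both conditions, and Lpl only on the ground.

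The flight effect in the gastrocnemius was set against that in the quadriceps in one fit of the 12 libraries with the mouse as a block. No gene of the 10481 tested passed an adjusted p of 0.05 (0%); 534 had an unadjusted p under 0.05, and the smallest adjusted p was 0.503. The 10 fatty acid genes were chosen partly by their flight effects, so their values and p-values here are a description. Of the 10 fatty acid genes, 7 had the lower value in the gastrocnemius. The largest differences were those of Lpl, at -0.29 (SE 0.114), Ech1, at -0.25 (SE 0.138), Hadha, at -0.24 (SE 0.114), and Fabp3, at -0.21 (SE 0.114), and each had an adjusted p of 0.957. Cd36 differed by -0.013 (SE 0.112), Acadl by 0.030 (SE 0.0933) and Cpt2 by 0.049 (SE 0.144).

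The rest of the pathway was followed with 11 lists of 119 other genes, of which 111 passed the filter. In the gastrocnemius 77 of the 111 were lower in flight, beside 46.4% of all genes tested, and 27 of them at an unadjusted p under 0.05, against 687 of all 10481 genes tested (6.55%), and the median log2 fold change was -0.11. In the quadriceps 79 were lower, beside 47.9% of all genes, 22 of them at an unadjusted p under 0.05, against 543 of all genes (5.18%), and the median was -0.13. These lists too were chosen with earlier results of these data known, so the counts are a description. A single gene was called, Idh2 in the gastrocnemius. Idh2, the mitochondrial NADP-dependent isocitrate dehydrogenase, was at 210, 208 and 198 TPM on the ground and at 146, 125 and 126 TPM after flight (-0.64, SE 0.0854, limma adjusted p = 0.0446), and this call was lost with any library but flight M11 left out (adjusted p of 0.109 to 0.241); without flight M11 Hadhb and Sdhd were called with it. In the quadriceps it was at 122, 132 and 143 TPM on the ground and at 117, 125 and 128 TPM after flight (-0.10, SE 0.0818, adjusted p = 0.676).

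The mitochondrial beta-oxidation list was the longest. Its 20 other genes all passed the filter, and 18 were lower in the gastrocnemius and 14 in the quadriceps, with medians of -0.26 and -0.14. None was called. The thioesterase Acot2 had the lowest log2 fold change in both muscles, -0.57 and -0.54, with overlapping libraries, and Acad10 had the highest, 0.23 and 0.30. Eci1, the isomerase that acts on unsaturated chains beside Ech1, was at 107, 109.7 and 107 TPM in the ground gastrocnemius and at 80.3, 78.3 and 69.2 TPM after flight (-0.50, SE 0.082, adjusted p = 0.0908), and in the quadriceps at 115, 86.0 and 117 TPM and at 83.1, 76.0 and 79.8 TPM (-0.39, SE 0.125, adjusted p = 0.375).

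**Figure D5:**
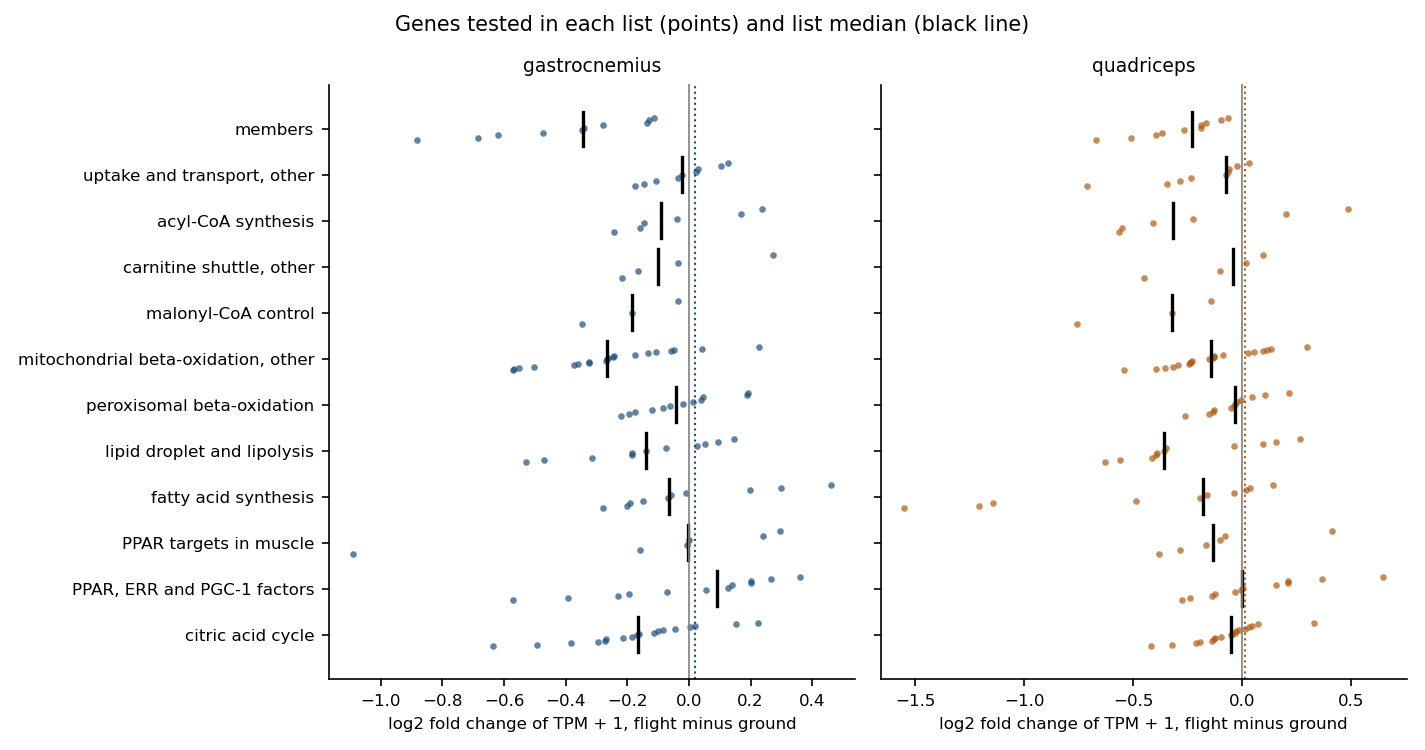
Log2 fold change of TPM + 1, flight minus ground (horizontal axes), of each gene tested in the 10 fatty acid genes ("members") and in 11 other pathway lists, for the gastrocnemius and the quadriceps; black lines are list medians and dotted lines the medians of all genes. The median of mitochondrial beta-oxidation lies at -0.26 and -0.14 and that of the peroxisomal list at -0.040 and -0.034.

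Uptake and activation varied by gene. Of 9 other uptake and transport genes tested, 5 were lower in the gastrocnemius, from Slc27a1, a fatty acid transport protein, at -0.18 to Fabp5 at 0.13, and 8 in the quadriceps, from Fabp4, the adipocyte and endothelial binding protein, at -0.71 (adjusted p = 0.352) to Vldlr at 0.033. Of 6 acyl-CoA synthetases, Acsl1, the main long-chain form of muscle, was the lowest in both muscles, at -0.24 and -0.57 (adjusted p = 0.274 in the quadriceps), and Acsl6 the highest in the gastrocnemius at 0.24, with Acsl3 the highest in the quadriceps at 0.48. In the carnitine shuttle the lowest were Slc25a20, the carnitine-acylcarnitine carrier, at -0.22 in the gastrocnemius and Slc22a5, the carnitine importer, at -0.45 in the quadriceps, and Cpt1a, the liver form of Cpt1b, was the highest in both, at 0.27 and 0.097. The 3 genes of malonyl-CoA control were lower in both muscles. Mlycd, which degrades malonyl-CoA, was at -0.35 in the gastrocnemius and at -0.32 in the quadriceps, while Acaca, which makes it, was at -0.034 and -0.76 and Acacb, the mitochondrial form, at -0.19 and -0.14.

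Genes of peroxisomal oxidation and lipid storage were mixed in direction. Of 12 peroxisomal genes tested 7 were lower in the gastrocnemius and 9 in the quadriceps, with medians of -0.040 and -0.034, and the highest were Scp2 at 0.19 and Amacr at 0.21. Of 11 lipid droplet and lipolysis genes 7 and 8 were lower, with medians of -0.14 and -0.36, from Plin5, a droplet coat of oxidative tissue, at -0.53 to Dgat1 at 0.14, and from Dgat2 at -0.63 to Plin4 at 0.26. Of 10 fatty acid synthesis genes 7 were lower in each muscle, with medians of -0.063 and -0.18. Fasn, fatty acid synthase, was the lowest, at -0.28 in the gastrocnemius and -1.55 in the quadriceps (adjusted p = 0.355), where it was at 104, 79.0 and 29.6 TPM on the ground and at 26.7, 14.4 and 23.0 TPM after flight. The ground libraries of the quadriceps had summed adipocyte markers of 228, 160 and 98.1 TPM in the same order of mice, and all 3 flown libraries were lower in these markers too; the part of adipocytes in Fasn, and in Fabp4 above, was not tested. The highest were Scd2 at 0.46 and Srebf1 at 0.14.

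Regulators did not shift together. Of 12 PPAR, ERR and PGC-1 factors tested, 5 were lower in the gastrocnemius and 6 in the quadriceps, with medians of 0.090 and -0.00060. Ppara, the PPAR of fatty acid oxidation, was at 10.7, 8.40 and 6.35 TPM on the ground and at 5.21, 5.24 and 5.34 TPM after flight in the gastrocnemius (-0.57, SE 0.169, adjusted p = 0.217), and the coactivator Ppargc1b was the highest there, at 0.36. In the quadriceps Esrra, the estrogen-related receptor alpha, was the lowest at -0.28 (adjusted p = 0.378) and Ppard the highest at 0.65 (adjusted p = 0.426). Of 6 other PPAR targets tested Acot1 was the lowest in both muscles, at -1.09 (adjusted p = 0.218) and -0.38, from levels of at most 5.08 TPM, and Ucp3, the mitochondrial uncoupling protein of muscle, the highest, at 0.30 and 0.41. Ucp3 was at 72.7, 166 and 135 TPM in the flown gastrocnemius and at 69.7, 185 and 135 TPM in the flown quadriceps, M11 being the low one in both. Without M11 its log2 fold change was 0.64 and 0.80 (limma adjusted p = 0.184 and 0.28). Without flight M12 it was 0.0502 and 0.106 (limma adjusted p = 0.964 and 0.946). Without ground M08 it was 0.0791 and 0.286 (limma adjusted p = 0.95 and 0.835). In the citric acid cycle 14 of 18 genes were lower in the gastrocnemius and 13 in the quadriceps, with Idh3g the highest in the former at 0.22, and Sdhd, a subunit of succinate dehydrogenase, the lowest in the latter at -0.42 (adjusted p = 0.298) and Suclg2 the highest at 0.33.

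Between the muscles 5 of the 111 pathway genes were called on the ground and 4 after flight. Over all 10481 genes tested 232 (2.21%) and 174 (1.66%) were called, and the counts of the pathway genes are a description. On the ground Idh2 was higher in the gastrocnemius (0.63, SE 0.0731, adjusted p = 0.01), and Fabp4 (-0.89, SE 0.188, adjusted p = 0.0354), Acsl4 (-0.66, SE 0.113, adjusted p = 0.0224), Me1, malic enzyme, (-0.62, SE 0.0941, adjusted p = 0.0166) and Suclg1, a subunit of succinyl-CoA ligase, (-0.65, SE 0.0647, adjusted p = 0.00927) were lower. After median-ratio rescaling Idh2 was the single call of these, and none was called without gastrocnemius M02 or without quadriceps M03. The count was 2 without gastrocnemius M03, 3 without gastrocnemius M08 or quadriceps M02, and 8 without quadriceps M08. After flight Acsl3 (-1.19, SE 0.147, adjusted p = 0.0233), Me1 (-0.63, SE 0.108, adjusted p = 0.0399) and Suclg1 (-0.81, SE 0.115, adjusted p = 0.0281) were lower in the gastrocnemius, and Scd2, a stearoyl-CoA desaturase, was higher (1.20, SE 0.193, adjusted p = 0.0354). With the mouse as a block the limma adjusted p of Scd2 was 0.054, and none of the 4 was called without gastrocnemius M20 or without quadriceps M11, M12 or M20, and only Acsl3 without gastrocnemius M12. Of the nerve and Schwann cell markers, 4 were called as higher in the gastrocnemius on the ground and 4 after flight. Mbp, Pmp22 and Ncmap of Schwann cells were among them in both conditions, Ncmap with a limma adjusted p of 0.0591 and 0.054 under the block. The fast genes Mylpf in both conditions and Pvalb on the ground were called as lower. Atp2a2 was called as lower in the gastrocnemius after flight. On the ground all 5 of the marker calls named here were lost without gastrocnemius M02. All but Mylpf were lost without the gastrocnemius or the quadriceps library of M03, and Ncmap without gastrocnemius M08. After flight all 5 named marker calls were lost without gastrocnemius M20, quadriceps M11 or quadriceps M12. All but Mylpf were lost without gastrocnemius M12, and all but Mylpf and Mbp without quadriceps M20. After median-ratio rescaling Pvalb on the ground (-0.566) was under the fold threshold. With the same rescaling Ncmap after flight had a limma adjusted p of 0.0562. On the ground the summed adipocyte markers were 46.8 to 106 TPM in the gastrocnemius and 98.1 to 228 TPM in the quadriceps, and their part in the level of Fabp4 was not tested.

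The 10 genes were set against every other gene tested by the Pearson correlation with their mean log2 level over the 12 libraries, given as a description because the libraries share mice, muscle and the ground-flight difference. Centred within each muscle, 29 of 10471 genes had an r above 0.9. The closest were Cyfip2 (r = 0.95), Eci1 (0.948), Arfip1 (0.947), Eif4a2 (0.943), Perm1 (0.936), Slc16a1 (0.935), Chchd1 (0.934), Rps18 (0.927), Adipor2 (0.926) and Gm5421 (0.926). Perm1 encodes a muscle regulator induced by PGC-1, and Slc16a1 a monocarboxylate transporter. Without centring 7 genes passed 0.9 and Eci1 came first (0.946), then Cyfip2, Chchd1, Mad2l1bp, Slc16a1, Opn1mw, Bdh1, Fastkd1, Akap1 and Ldhb. Among the 10 genes themselves, again centred within each muscle, r with the mean of the other 9 was computed over the 12 libraries. It ran from 0.49 for Cpt1b and 0.496 for Acadm to 0.966 for Ech1. The contrast with flight helped to choose the 10 genes, so these r values too are a description.

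Reads of some of these genes can be shared with other transcripts. In the GENCODE vM21 transcripts, 79.7% of the 31-base words of Cpt1b also occur in Gm44502 and 50.1% of those of Fabp3 occur in other genes, mostly in Fabp3-ps1, while the share was between 0% and 6.45% for the other 8 genes. Gm44502 was at no more than 3.08 TPM and Fabp3-ps1 at no more than 8.30 TPM in any library. With Fabp3-ps1 added, the log2 fold change of Fabp3 was -0.86 in the gastrocnemius and -0.66 in the quadriceps. With Gm44502 added, that of Cpt1b was -0.11 and -0.17.

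The RefSeq promoter table (GRCm38.p6, 250 bases before to 50 after each start) held 7 of the 10 genes, and not Lpl, Cpt1b and Acaa2. It was searched on both strands for DR1, the PPAR element with 2 half-sites 1 base apart (AGGTCANAGGTCA, up to 2 mismatches), and for the ERR response element (TCAAGGTCA, up to 1 mismatch), which contains the same half-site. Cd36 held a DR1 match, as did 3.86% of all 32851 promoters, and Ech1 an ERR match, as did 7.46%. The other 5 promoters held neither. The windows are shown because these are the known elements of the regulators above, with the matched bases in capitals, read along the strand of the match.
Cd36, chr5:17835939-17835967, plus strand: atccaagtAAGTCAGAGGCCAgagaacca
Ech1, chr7:28825268-28825292, minus strand: catgttggTCAAGGGCAccgaagcc
Along the strand of the gene, the upstream edges of the motifs lie at positions -63 and -62 from the RefSeq starts. Both matches are on the strand opposite to the gene, so these edges are the motif ends printed last. Both windows lie within the GENCODE span of their gene. Counted from 1 at the 5′ end of the motif, the first differs from it by G2A and T11C and the second by T7G. A match is a description of letters and not a bound site.

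Splicing was examined in the deposited junction reads of skipped and mutually exclusive exons. No event of the 10 genes was listed in either muscle. Of the other pathway genes, 10 had 12 events in each muscle, of which 8 in the gastrocnemius and 10 in the quadriceps were kept. None was called in the gastrocnemius, where 8 of 2118 kept events were (0.378%), and none in the quadriceps, where 0 of 2062 were (0%). At an unadjusted p under 0.05 there was 1 in the gastrocnemius and 0 in the quadriceps. It was a skipped exon of Idh2, included at 1.12% on the ground and 5.67% after flight. This was a difference of 4.55 points at a mean of 33.3 junction reads (limma adjusted p = 0.313). A skipped exon of Idh2 in the quadriceps was included at 18.7% and 6.76% (limma adjusted p = 0.939). Whether it is the same exon was not checked.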

How the data were processed

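TPM values of 12 libraries were deposited as made by the authors with kallisto 0.46.0, from stranded single-end mRNA reads, and summed per gene with tximport. The authors used DESeq2 1.26.0, which needs counts and was not applied to TPM here. For splicing, the authors aligned with STAR 2.7.1a to mm10 (GRCm38) and ran rMATS; its tables list junction reads of 3 unnamed samples a group. Their columns of inclusion levels, p-values and FDR were not used. Groups came from the sample labels, and all 12 columns were matched by title.

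Genes with TPM above 5 in at least 1 library were kept. Each comparison was fitted on log2(TPM + 1) over all kept genes with limma 3.58.1 (lmFit, eBayes with a trend) in R 4.3.3, with two-sided p-values adjusted by the Benjamini-Hochberg method, and called at an adjusted p under 0.05 and more than 1.5-fold. With 3 mice against 3, an exact permutation test of one gene could not go below p = 0.1. The muscles are paired by animal, and correlations of the deviations of same-mouse libraries ran from -0.119 to 0.333. Splicing was fitted by limma on log2 ratios of inclusion to skipping reads (0.5 added, divided by effective length), for events with a mean over 10 reads in both groups and unless PSI, the share spliced in, was beyond 0.05 or 0.95 on the same side in all 6 samples, and called at a PSI difference over 5 points. Scripts were tested on simulated data.

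The 10 genes and all lists were chosen with earlier results of these data known. Named genes were the 10, each pathway gene called, the lowest and highest of each list with flight, defining markers, called markers and the 10 closest by correlation; Hadhb, Eci1 and the partner genes were added for their ties to these. Alternatives were another pseudocount, filters, scaling, no trend, one fit of all libraries, a block, and leaving out each library. Adding a partner gene's TPM was chosen after seeing the data. Some genes that this rule names are not reported here.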

Additional observations from a re-analysis of the deposited data

How the results depend on the processing

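The direction of the 10 fatty acid genes with flight held in every alternative, except that Acadm in the quadriceps turned to 0.049 without ground M08 and to 0.012 without flight M11. The calls depended on the settings, and the cause was not tested. In the gastrocnemius 24 genes were called with flight, and 4 with no filter on low values, 5 without the variance trend, and 1 (without flight M20) to 133 (without flight M11) when a library was left out. The 3 calls among the 10 genes became 0 with no filter and without the trend, and were 0 to 3 when a library was left out; the single other pathway call became 0 with no filter and without the trend, and was 0 to 3. Their median log2 fold change of -0.344 became -0.376 after median-ratio rescaling and ran from -0.396 to -0.301 when a library was left out. After the rescaling 6 genes were called as higher and 12 as lower, against 12 and 12. In the quadriceps the 3 calls became 1 with no filter, after rescaling and without the trend, and were 1 to 4 when a library was left out.

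Flown and ground mice share only a replicate number. With the replicate block the calls with flight were 0 in the gastrocnemius, 0 of them among the 10 genes and 0 among the other pathway genes, and 0 in the quadriceps. Between muscles, where the replicate block is the mouse, 198 genes were called on the ground and 168 after flight, with 7 and 3 pathway genes (the additions were Fasn and Scd1). Of the pathway calls between muscles, that of Scd2 after flight was lost with it. Without the replicate block the difference of the flight effects again had 0 calls.

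Between muscles on the ground, 232 calls (61 higher, 171 lower) became 89 with no filter, 115 after rescaling (56 higher, 59 lower) and 139 without the trend, and ran from 0 (without gastrocnemius M02) to 220 when a library was left out; the 5 pathway calls became 2 with no filter and 1 after rescaling, and ran from 0 to 8. The median of the 10 genes, 0.039, became 0.135 after rescaling. After flight, 174 calls (43 higher, 131 lower) became 13 with no filter, 65 after rescaling (32 higher, 33 lower), 59 without the trend and 320 with all 12 libraries in one fit, and ran from 12 (without quadriceps M12) to 280 (without gastrocnemius M11); the 4 pathway calls became 0 with no filter and 1 without the trend, and ran from 0 to 4. The median of the 10 genes, -0.0953, became -0.00791 after rescaling and ran from -0.118 to -0.018 when a library was left out. For the difference of the flight effects, 0 calls became 2 with no filter, and 0 to 1 without a mouse (1 without M12), and the median of -0.119 ran from -0.189 to -0.031. Splicing calls among the pathway genes were 0 in all settings. TPM carries no depth, so the precision rests on 3 mice a group.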
